A study of Mus musculus with 8 samples.

Results

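Pre-mRNA splicing removes introns and joins exons, and the genes described here encode much of the protein machinery that does it. They were chosen by symbol in the array's probe annotation: every gene whose symbol begins with Hnrnp, Hnrp, Snrp, Srsf, Sfrs, Sf3a or Sf3b, or with Lsm and a digit. This gave 59 genes: 19 heterogeneous nuclear ribonucleoproteins (hnRNPs), 21 Sm and LSm proteins and other small nuclear ribonucleoprotein (snRNP) components, 10 SR proteins and 9 subunits of the SF3 complexes. Of these, 58 passed the filter on low signal and were tested among 12520 genes. The exception was Snrpn, whose probe set averaged 4.25 on the log2 scale, under the filter's 5.38. Snrpa, Snrpd1, Snrpd2, Lsm5 and Hnrnpa3 had probe sets annotated to several genes only and were not named from them, and Srsf7 was not analysed here.

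Cytotoxic (CD8) T cells were purified from C57BL/6 spleens by positive magnetic selection. They spent 18 h in culture with bone marrow dendritic cells, which present antigen, in a ratio of 10 to 1. The 4 groups were PKC theta KO cells, p50 cRel DKO cells and WT cells, each with dendritic cells carrying the ovalbumin peptide N4, and WT cells with non-pulsed dendritic cells. PKC theta links T cell receptor engagement to NF-kB activation, and p50 and cRel are subunits of that transcription factor. Dendritic cells were then removed through CD11c, and each group was read on 2 Affymetrix arrays from 100 ng of total RNA per array. The labels name no receptor transgene. Nothing in them ties the 2 arrays in each group to different animals or cultures, so p-values measure only the spread between these arrays. Both knockouts met N4 only, so knockout cells without peptide were not analysed here.

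In the nucleus, snRNPs built on rings of Sm or LSm proteins recognise the splice sites, and the SF3A and SF3B complexes of the U2 snRNP hold the branch point. SR proteins bind exons and mostly favour their inclusion, while hnRNPs coat the transcript and often favour skipping. In T cells this balance is known for the exons of Ptprc (CD45), whose variable exons are skipped after stimulation with the help of Hnrnpll and Hnrnpl. The arrays measured 1 signal per probe set at the level of genes, so exon use was not measured.

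All levels below are log2(signal + 16) of the probe set with the highest mean for each gene, and differences are on the same scale. "Rose" and "fell" mark a Benjamini-Hochberg adjusted p under 0.05 in limma over all 12520 genes. Array medians ran from 33.6 to 70.3 in signal units. The targeted gene Rel (cRel) lay at 6.19 and 5.92 on the double knockout arrays, against 9.82 and 9.53 on the WT N4 arrays. Prkcq (PKC theta) lay at 11.00 and 10.75 on the PKC theta KO arrays, against 11.74 and 11.35 on the WT N4 arrays. Its probes could lie outside the deletion, so they do not check that label. The Y-linked gene Eif2s3y lay between 5.42 and 6.73 on the knockout arrays, against 10.65 to 11.20 on the wild-type arrays. Sex-linked transcripts therefore moved with genotype, and their part in the results was not tested. Xist lay at 6.05 and 11.84 on the 2 WT non-pulsed arrays, against 5.18 and 6.65 on the WT N4 arrays. The non-pulsed arrays thus also differed from each other in it, and so did the replicate 2 arrays of these 2 groups.

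The promoters of 4 genes that rose with N4 under every processing alternative, Lsm8, Snrpa1, Sf3a3 and Snrpf, are shown with that of Srsf5, whose difference was below 0. Each window is from RefSeq on build GRCm38.p6, runs 5′ to 3′ on the gene's strand from 250 bases before to 50 bases after the start, and has in capitals the matches to the motifs named after it. Lsm8 lies at chr6:18848385-18848684 on the plus strand, Snrpa1 at chr7:66060086-66060385 on the plus strand, Sf3a3 at chr4:124714611-124714910 on the plus strand, Snrpf at chr10:93589609-93589908 on the minus strand and Srsf5 at chr12:80945249-80945548 on the plus strand.
Lsm8: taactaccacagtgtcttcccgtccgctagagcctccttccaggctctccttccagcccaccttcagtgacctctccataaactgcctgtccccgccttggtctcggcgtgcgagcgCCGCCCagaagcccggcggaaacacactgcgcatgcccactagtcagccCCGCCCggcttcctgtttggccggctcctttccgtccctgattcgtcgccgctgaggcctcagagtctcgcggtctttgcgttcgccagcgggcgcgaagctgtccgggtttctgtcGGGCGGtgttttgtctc
Snrpa1: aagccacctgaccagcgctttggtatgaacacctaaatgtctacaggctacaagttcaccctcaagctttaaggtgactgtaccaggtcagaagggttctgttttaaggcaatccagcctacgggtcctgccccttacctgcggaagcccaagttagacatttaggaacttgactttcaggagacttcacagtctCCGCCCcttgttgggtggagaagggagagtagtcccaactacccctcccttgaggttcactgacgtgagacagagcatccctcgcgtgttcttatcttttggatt
Sf3a3: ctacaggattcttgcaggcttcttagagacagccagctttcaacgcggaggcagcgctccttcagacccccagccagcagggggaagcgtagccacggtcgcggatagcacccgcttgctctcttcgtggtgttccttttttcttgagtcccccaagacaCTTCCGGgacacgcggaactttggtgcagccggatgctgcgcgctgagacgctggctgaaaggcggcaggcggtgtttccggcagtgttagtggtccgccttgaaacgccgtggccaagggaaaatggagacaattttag
Snrpf: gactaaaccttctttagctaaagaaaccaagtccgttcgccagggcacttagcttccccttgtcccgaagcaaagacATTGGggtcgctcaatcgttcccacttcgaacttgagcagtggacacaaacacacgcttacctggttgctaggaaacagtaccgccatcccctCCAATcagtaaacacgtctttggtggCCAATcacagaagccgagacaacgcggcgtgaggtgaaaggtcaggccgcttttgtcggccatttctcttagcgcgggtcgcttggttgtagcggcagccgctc
Srsf5: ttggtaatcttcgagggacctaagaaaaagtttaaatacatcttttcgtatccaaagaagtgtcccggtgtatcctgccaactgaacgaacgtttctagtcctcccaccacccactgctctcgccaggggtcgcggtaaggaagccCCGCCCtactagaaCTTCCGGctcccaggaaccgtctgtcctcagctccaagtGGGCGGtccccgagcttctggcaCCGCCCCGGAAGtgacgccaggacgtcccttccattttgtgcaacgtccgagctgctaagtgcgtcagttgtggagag
In these windows the capitals mark GC boxes in Lsm8, Snrpa1 and Srsf5, ETS motifs in Sf3a3 and Srsf5, and CCAAT boxes in Snrpf. Lsm8 and Srsf5 each held 3 GC boxes and Snrpa1 held 1, Sf3a3 held 1 ETS motif and Srsf5 held 2, and Snrpf held 3 CCAAT boxes. One GC box and one ETS motif of Srsf5 overlap, so their capitals run together.

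Promoter windows were found for 50 of the 58 tested members. Hnrnpll, Hnrnpul2, Lsm1, Lsm4, Lsm12, Sf3b4, Sf3b5 and Snrpb had no entry. Motifs were searched on both strands by their letters, and matches may overlap. A gene with several start sites counts once if any of its windows holds the motif. The ETS motif CCGGAAG was in 15 of the members' 50 promoters, against 19.4% of the promoters of all tested genes with an entry and 9.93% of those of all genes. The NRF1 motif was in 11 of 50 (22.0%), against 11.2% of tested genes and 5.19% of all genes. The GC box GGGCGG was in 37 of 50 (74.0%), against 66.4% of tested genes and 38.2% of all genes. The CCAAT box was in 25 of 50, against 42.6% of tested genes and 41.1% of all genes. The E-box CACGTG, which Myc and related factors can bind, was in 8.0%, against 11.4% of tested genes, and the NF-kB motif was in 8.0%, against 12.4% of tested genes. The members' median difference with N4 in wild-type cells was 0.40 for the 15 promoters with the ETS motif and 0.30 for the others. For the 11 with the NRF1 motif it was 0.33, against 0.35 for the others, and for the 37 with a GC box 0.34, against 0.20. For the 25 with a CCAAT box it was 0.26, against 0.49 for the others. These shares describe letters in a window and were not tested.

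In WT cells with N4, splicing genes that passed the test were all higher than in WT cells with non-pulsed dendritic cells. Of the 58 members 21 rose, 0 fell and 37 did not pass. That is 36.2% higher, where 40.7% of all tested genes passed, 17.2% higher and 23.5% lower. The largest difference was that of Hnrnpll, a 3.62-fold rise, followed by the LSm proteins Lsm2 (2.07-fold) and Lsm8 (2.02-fold). These were the 3 of 58 members that rose at least 2-fold, where 806 of all 12520 genes did. The median difference over members was 0.34, against -0.10 over all genes, and 51 of 58 differences were above 0. The arrays of the 2 groups did not overlap, with N4 higher, for 38 members, where this held for 29.3% of all genes, and with N4 lower for 2 members, where it held for 39.1%. This lead over all genes depended on the processing. After median centring of the arrays 11 members rose (19.0%, against 18.1% of all genes), and in eBayes without a trend 11 did (19.0%, against 14.7%). Without WT N4 replicate 1 there were 5 (8.62%, against 11.2% of all genes), and without WT non-pulsed replicate 2 there were 8 (13.8%, against 12.5%), so in 3 of these 4 settings the members' share was near or below that of all genes. With the replicate number as a block 34 members were higher (58.6%, against 22.5% of all genes) and 1 (Srsf5) was lower (1.72%, against 28.6%), and all 21 were among them.

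Markers of other cell types were lower in the same comparison. Summed signals of 15 B cell markers lay at 11280 and 5559 on the WT N4 arrays, against 78160 and 55157 on the WT non-pulsed arrays. Those of 19 markers of dendritic cells and macrophages lay at 13177 and 4098, against 99569 and 82608. Those of 7 neutrophil markers lay at 878 and 306, against 23938 and 26303. All 15 B cell markers, 16 of the 19 dendritic cell and macrophage markers and all 7 neutrophil markers fell. Of the other lists of markers, 3 of 4 for CD4 T cells, 2 of 3 for NK cells and both for erythroid cells fell, and 1 for CD4 T cells rose. Of 8 CD8 T cell markers 4 rose and 0 fell. Their differences ran from -0.10 to 2.90, with a median of 0.34, beside 0.34 for the splicing genes. Against the same non-pulsed arrays the 2 medians were further apart. They were 0.79 for the markers and 0.37 for the splicing genes in the PKC theta KO, and 0.24 and 0.39 in the double knockout. Fewer cells of a type and less RNA per cell cannot be told apart in such samples, and the part of the marker shift in the rise of the splicing genes was not tested.

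**Figure D1:**
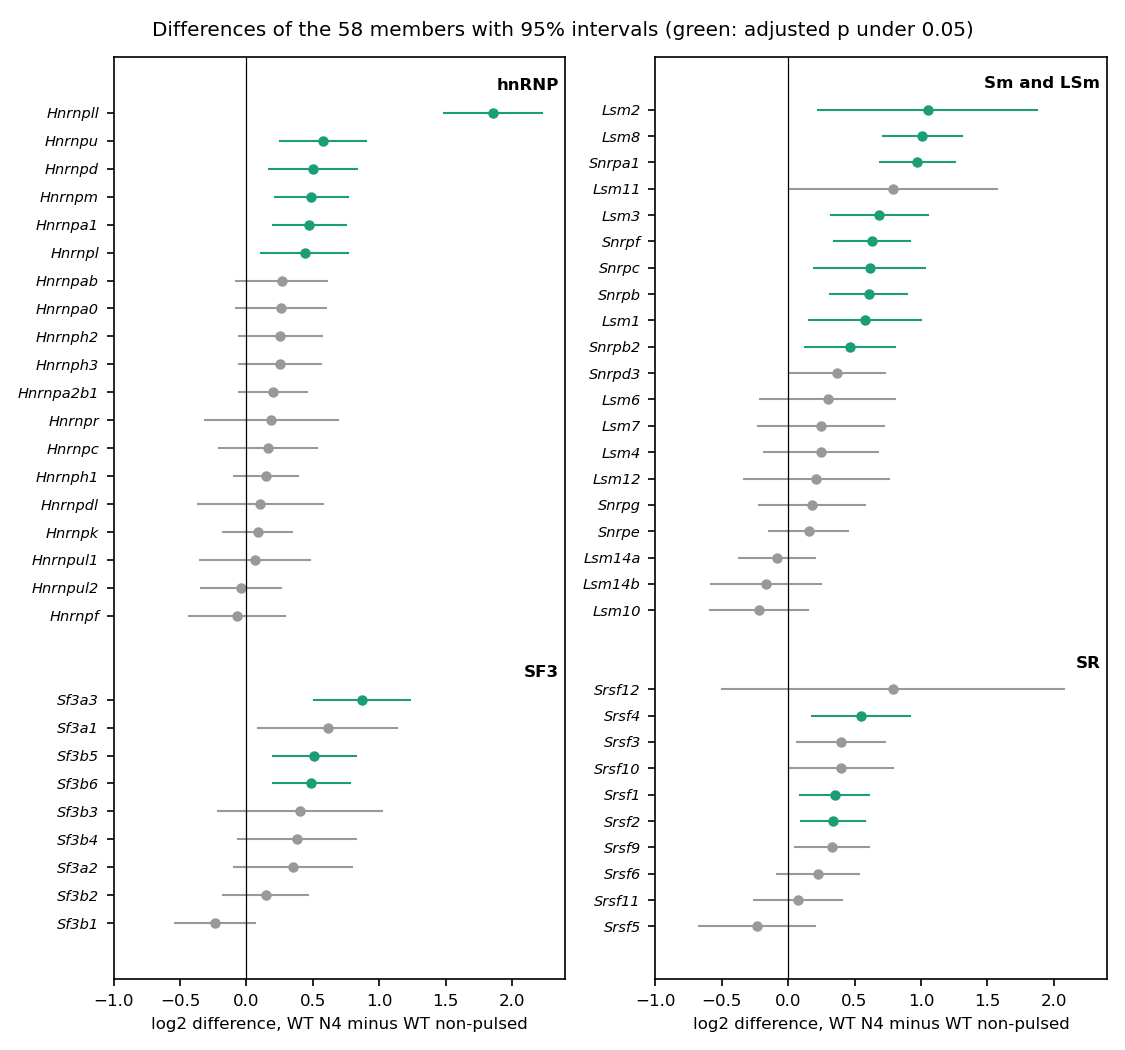
Differences between WT N4 and WT non-pulsed arrays for the 58 tested members, on the scale of log2(signal + 16), by gene family (2 arrays per group). Points are differences, lines are 95% intervals, and green marks an adjusted p under 0.05; 21 members are green, and all of these lie to the right of 0, with Hnrnpll farthest at 1.86.

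Among the hnRNPs, 6 of 19 rose (31.6%, against 17.2% of all genes) and 0 fell (against 23.5%), with a median difference of 0.25. Hnrnpll, which drives skipping of the variable CD45 exons, lay at 12.57 and 12.47 on the WT N4 arrays, against 10.44 and 10.88 on the WT non-pulsed arrays. Both N4 arrays were above both non-pulsed arrays. It rose by 1.86 (SE 0.16, limma adjusted p = 7.57e-05), with a 95% interval of 1.49 to 2.23, and its other probe set rose too (1.58, SE 0.24). Hnrnpl, its relative that also represses CD45 exons, lay at 12.68 and 12.64 with N4, against 12.23 and 12.22 without. The groups did not overlap, and the difference was far smaller, at 0.44 (SE 0.14, limma adjusted p = 0.0382). Ptprc itself lay at 14.07 and 14.12 with N4, against 14.26 and 14.10 without, so its groups overlapped.

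Hnrnpu, the scaffold attachment factor that binds RNA and chromatin, lay at 14.13 and 14.05 with N4, against 13.64 and 13.39 without (0.57, SE 0.14, limma adjusted p = 0.0119). Hnrnpd (AUF1), which binds AU-rich elements and directs the decay of cytokine mRNAs, lay at 13.30 and 13.10, against 12.84 and 12.56 (0.50, SE 0.14, limma adjusted p = 0.0237). Hnrnpm rose by 0.49 and Hnrnpa1, a classic antagonist of SR proteins in splice site choice, by 0.47. With the mean of all probe sets of a gene, Hnrnpu (0.12), Hnrnpd (0.093) and Hnrnpa1 (0.11) did not pass (limma adjusted p = 0.624, 0.684 and 0.589). In each of these 4 genes both N4 arrays were above both non-pulsed arrays. The other 13 hnRNPs did not pass, and they included abundant family members. Hnrnpk lay at 13.62 and 13.47 with N4, against 13.53 and 13.39 without, a difference of 0.09 with a 95% interval of -0.17 to 0.34. Hnrnpc (0.16), Hnrnpa2b1 (0.20) and Hnrnpf (-0.07) did not pass either. For Hnrnpk, Hnrnpc and Hnrnpf the groups overlapped, while both N4 arrays of Hnrnpa2b1 were above both non-pulsed arrays.

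Of the 20 tested Sm, LSm and snRNP genes 9 rose (45%, against 17.2% of all genes) and 0 fell (against 23.5%). Their median difference was 0.42. The LSm2-8 ring binds the end of U6 snRNA in the nucleus. Lsm8, the subunit found only in that nuclear ring, lay at 12.81 and 12.74 with N4, against 11.87 and 11.66 without, and rose by 1.01 (SE 0.13, limma adjusted p = 0.000469). Lsm2 lay at 11.96 and 11.22, against 10.89 and 10.20. Its arrays differed within each group by replicate number, and both numbers gave similar differences (1.08 and 1.02), so its SE was wide at 0.36 (limma adjusted p = 0.0456). In a fit over all 27022 probe sets that passed the filter, Lsm2 did not pass (limma adjusted p = 0.0652). Lsm3 rose by 0.69 (SE 0.16). Lsm1, which replaces Lsm8 in the cytoplasmic ring that promotes mRNA decapping, lay at 11.09 and 11.27, against 10.58 and 10.63, and rose by 0.58 (SE 0.18). Its other, dimmer probe set differed by -0.69 (SE 0.31), and with the mean of both Lsm1 stood at -0.057 and did not pass (limma adjusted p = 0.857). Lsm4 (0.24), Lsm6 (0.30) and Lsm7 (0.25), subunits of both rings, did not pass, and their groups overlapped, although Lsm6 passed as higher with the replicate block (limma adjusted p = 0.0226).

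Of the snRNP proteins, Snrpa1 (the A′ protein of the U2 snRNP) lay at 13.15 and 13.04 with N4, against 12.23 and 12.02 without, a rise of 0.97 (SE 0.12, limma adjusted p = 0.000438). Its partner Snrpb2 (the B″ protein) rose by 0.47 (SE 0.15). With the mean of all its probe sets Snrpb2 stood at 0.21 and did not pass (limma adjusted p = 0.267). Of the Sm ring proteins shared by the spliceosomal snRNPs, Snrpf rose by 0.63 (SE 0.13) and Snrpb by 0.61 (SE 0.13). Snrpd3 (0.37), Snrpg (0.18) and Snrpe (0.15) did not pass, and with the replicate block Snrpd3 did (limma adjusted p = 0.0121). Snrpe lay at 14.27 and 14.00 with N4, against 14.07 and 13.90 without, and its groups overlapped. Snrpc, a protein of the U1 snRNP that binds the 5′ splice site, rose by 0.61 (SE 0.18). Lsm members with other roles, Lsm10, Lsm11, Lsm14a and Lsm14b, did not pass, although Lsm11 did with the replicate block (limma adjusted p = 0.0232). Lsm10, part of the U7 snRNP that processes histone mRNA ends, differed by -0.22 and Lsm11, its U7 partner, by 0.79. Lsm14a and Lsm14b, which belong to cytoplasmic mRNA granules and not to the spliceosome, differed by -0.08 and -0.17.

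Of 10 SR proteins 3 rose (30%, against 17.2% of all genes) and 0 fell (against 23.5%), with a median difference of 0.34. Srsf4 lay at 12.18 and 12.12 with N4, against 11.73 and 11.48 without (0.55, SE 0.16, limma adjusted p = 0.0261). Srsf1 (ASF/SF2), the founding member that also acts in mRNA export and translation, lay at 14.00 and 13.84, against 13.62 and 13.53 (0.35, SE 0.11, limma adjusted p = 0.0368). Srsf2 (SC35) lay at 13.90 and 13.87, against 13.59 and 13.50 (0.34, SE 0.11, limma adjusted p = 0.032). These differences were small, and both N4 arrays were above both non-pulsed arrays in each. Srsf3, at 0.40 (SE 0.14), missed the threshold (limma adjusted p = 0.0553) and passed with the replicate block (limma adjusted p = 0.00716). Srsf5 stood on the other side of 0. It lay at 13.10 and 12.85 with N4, against 13.40 and 13.02 without, a difference of -0.23 (limma adjusted p = 0.38) that passed as lower with the replicate block (limma adjusted p = 0.0466). Srsf12 was dim, between 4.74 and 6.67 on the 8 arrays, and its 95% interval ran from -0.50 to 2.08.

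Of 9 SF3 genes 3 rose (33.3%, against 17.2% of all genes) and 0 fell (against 23.5%), with a median difference of 0.40. Sf3a3, a subunit of SF3A, lay at 12.17 and 11.91 with N4, against 11.27 and 11.08 without, and rose by 0.87 (SE 0.16, limma adjusted p = 0.00277). Sf3b5 (0.51, SE 0.14) and Sf3b6 (0.49, SE 0.13), 2 small subunits of SF3B of which Sf3b6 contacts the branch point, rose too. Sf3b1, the large scaffold of SF3B, had the lowest difference of all 58 members. It lay at 12.62 and 12.77 with N4, against 13.04 and 12.82 without. Both N4 arrays were below both non-pulsed arrays, but the difference of -0.24 did not pass (limma adjusted p = 0.191). The remaining subunits, Sf3a1 (0.61), Sf3b3 (0.40), Sf3b4 (0.38), Sf3a2 (0.35) and Sf3b2 (0.15), did not pass. With the replicate block 7 of the 9 rose (77.8%), as did 12 of the 20 Sm, LSm and snRNP genes, 8 of the 19 hnRNPs (42.1%) and 7 of the 10 SR proteins, where 22.5% of all genes were higher with the block.

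**Figure D2:**
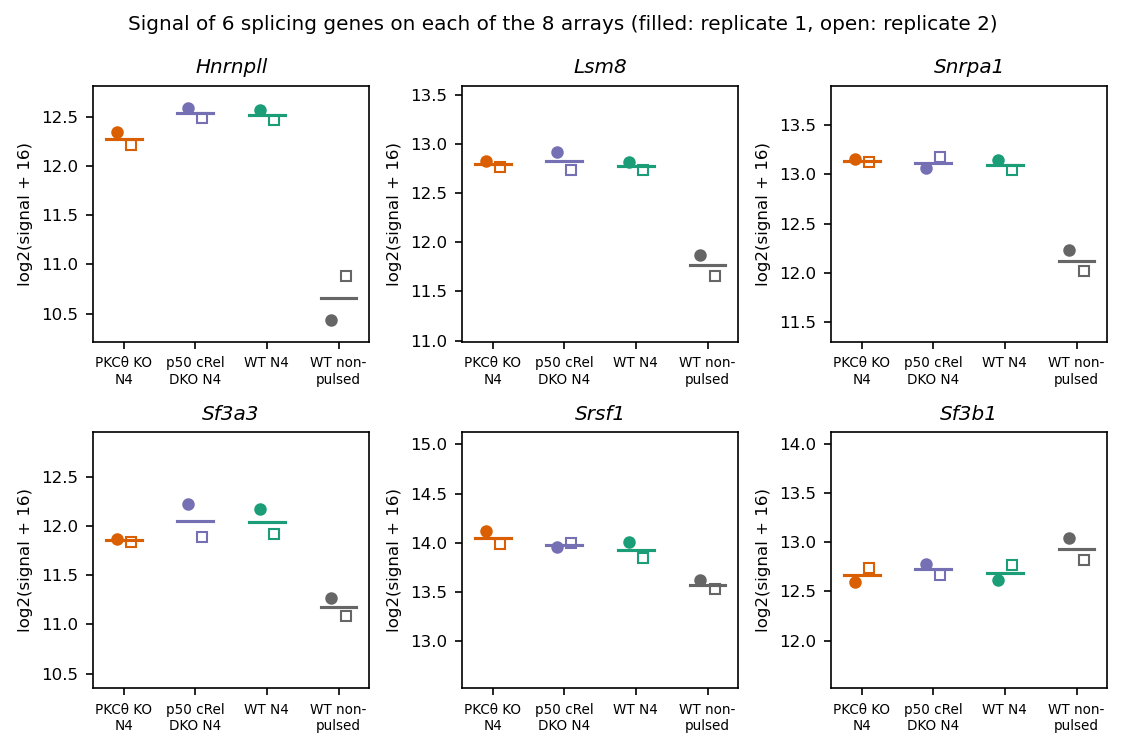
Levels of Hnrnpll, Lsm8, Snrpa1, Sf3a3, Srsf1 and Sf3b1 on each array as log2(signal + 16); each panel spans the same height but its own levels, bars are group means, filled circles are replicate 1 and open squares replicate 2. In the first 5 panels all 6 arrays with N4 lie above both WT non-pulsed arrays, and for Sf3b1 all 6 lie below them.

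The size of a gene's change depended on the probe set. Of 39 members with several probe sets past the filter, 20 had all of them on 1 side of 0 and 19 did not. Probe sets were fitted and adjusted over all 27022 that passed the filter. Of the 152 member probe sets among these, 38 rose, 1 fell and 113 did not pass, and no member had probe sets that passed in opposite directions. The shares of all 27022 probe sets that rose or fell in this fit are not given here, so these counts stand without that background. In this fit 17 members had a higher call in the probe set used above and 6 more (Hnrnpab, Hnrnpdl, Lsm6, Srsf1, Srsf10 and Srsf3) in another one only. Of these, Hnrnpab, Hnrnpdl, Lsm6 and Srsf10, with Srsf11, were named after their values were seen.

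Srsf10, an SR protein that can repress splicing, was one of them. Its probe set used above differed by 0.40 (SE 0.17) and did not pass. Its other 3 rose by 1.11, 0.62 and 0.71 (SE 0.13, 0.13 and 0.18). Srsf1 likewise differed by 0.35 in the probe set used and rose by up to 0.99 (SE 0.15) in another. Srsf3 rose by 0.66 (SE 0.13) and 0.67 (SE 0.14) in 2 probe sets and differed by -0.87 (SE 0.62) in the one with the lowest signal. That probe set read 7.53 and 9.16 with N4, against 8.67 and 9.76 without, so its groups overlapped. The single probe set that fell belonged to Srsf11. It read 7.26 and 7.67 with N4, against 8.34 and 8.54 without (-0.97, SE 0.26, limma adjusted p = 0.023), while the probe set used for Srsf11 differed by 0.07. Which transcripts each probe set detects was not analysed here.

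**Figure D3:**
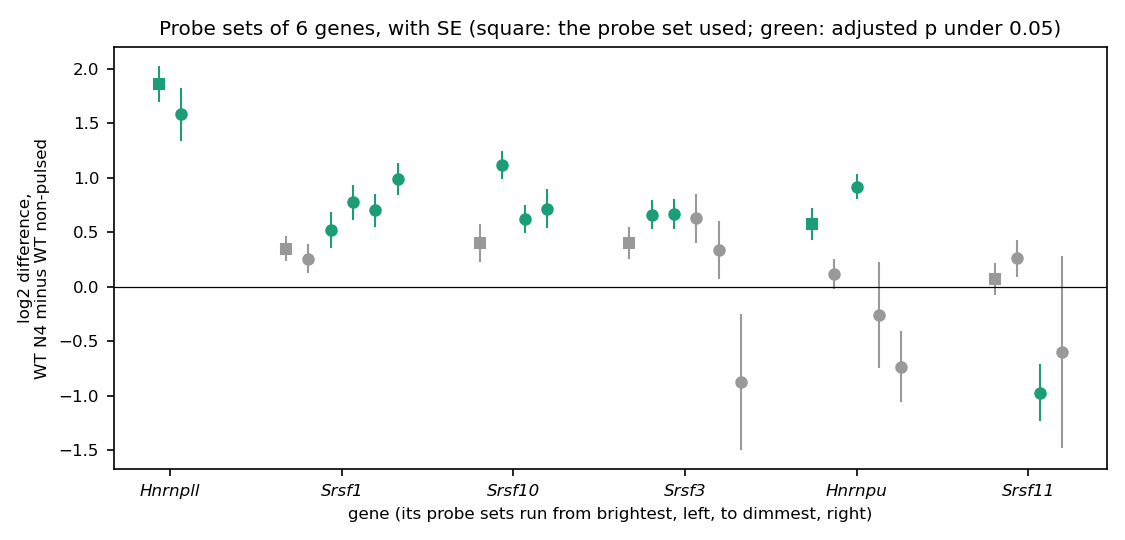
Differences between WT N4 and WT non-pulsed arrays for each probe set of 6 genes, on the scale of log2(signal + 16), with SE (2 arrays per group); probe sets run from highest to lowest mean signal within a gene, the square is the one used elsewhere, and green marks an adjusted p under 0.05 over probe sets. Both Hnrnpll probe sets and 3 of 4 Srsf10 probe sets are green above 0, and 1 Srsf11 probe set is green below 0.

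Other splicing genes, from 7 lists made from general knowledge, were measured beside the members. Among 143 tested genes, 48 passed as higher (33.6%, against 17.2% of all genes) and 8 as lower (5.59%, against 23.5%). Their median difference was 0.31, against -0.10 over all genes. The genes that assemble snRNPs had the highest median of the 7 lists: of 15 tested genes of the SMN complex, the methylosome and their partners 10 rose and 0 fell (median 0.72). Among them were the SMN complex helicase Ddx20 (1.02, SE 0.15) and Gemin2 (0.98, SE 0.15). Of 27 other proteins of the U1, U4, U5 and U6 snRNPs 7 rose and 1 fell, led by the U4/U6 snRNP protein Prpf31 (1.19, SE 0.14) and Usp39 (0.97, SE 0.12). Of 31 genes of the Prp19 complex and the catalytic steps 11 rose and 1 fell, with Prpf19 itself at 0.60 (SE 0.10) and Bcas2 at 0.78 (SE 0.14). Of 12 branch point and 3′ splice site factors 3 rose, including Rbm17 (0.59, SE 0.12) and the SF3B subunit Phf5a (0.83, SE 0.21). Of 17 exon junction complex and SR-related genes 7 rose, including Bclaf1 (0.91, SE 0.16) and the export helicase Ddx39a (0.58, SE 0.12).

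Kinases that phosphorylate SR proteins had the lowest median (-0.19). Of 8 such genes 0 rose and 2 fell, a share of 25% that is near the 23.5% of all genes that fell. Clk1 lay at 11.09 and 11.40 with N4, against 12.51 and 12.48 without, and fell by 1.25 (SE 0.16, limma adjusted p = 0.000496). Clk4 lay at 8.97 and 9.50, against 10.43 and 10.20, and fell by 1.08 (SE 0.22, limma adjusted p = 0.00429). Both N4 arrays were below both non-pulsed arrays in each. Of 34 other splicing regulators 10 rose (29.4%) and 4 fell (11.8%). Mbnl2, a regulator of developmental exons, lay at 9.12 and 9.51 with N4, against 10.86 and 10.83 without (-1.53, SE 0.17, limma adjusted p = 0.000245), and the paraspeckle protein Pspc1 rose by 0.87 (SE 0.13). Whether these falls came from T cells or from the cell types whose markers fell was not tested.

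**Figure D4:**
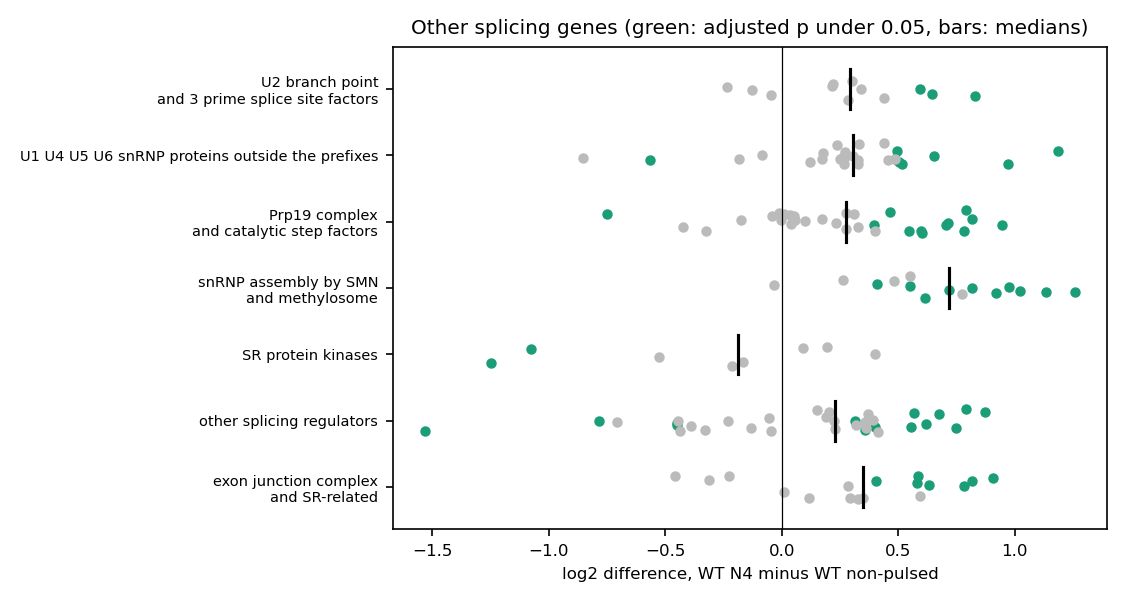
Differences between WT N4 and WT non-pulsed arrays for 7 lists of other splicing genes, on the scale of log2(signal + 16) (2 arrays per group); points are genes, green marks an adjusted p under 0.05 and bars are medians. The snRNP assembly list has the highest median, at 0.72, and the SR protein kinases the lowest, at -0.19.

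Loss of PKC theta was followed by no detected difference in these genes. In PKC theta KO cells with N4, 0 of 58 members passed limma in either direction against WT N4 cells, where 0.024% of all genes did. At an unadjusted p under 0.05 the count was 0 as well, and it was also 0 after adjustment in each of the 17 alternatives. The median difference was 0.02, and differences ran from -0.24 to 0.28. Arrays of the groups did not overlap for 6 members higher and 6 lower in the knockout, where this held for 11.5% and 14.3% of all genes. Summed B cell markers lay at 12787 and 8168 in PKC theta KO cells, against 11280 and 5559 in WT N4 cells. Of 19 dendritic cell and macrophage markers 10 were lower and 9 higher in the knockout (median -0.06), and 0 passed. Hnrnpll had the lowest p. It lay at 12.34 and 12.22 in PKC theta KO cells, against 12.57 and 12.47 in WT N4 cells. Both knockout arrays were below both WT N4 arrays, but the difference of -0.24 did not pass (SE 0.16, limma adjusted p = 1.00). Hnrnpr (0.28), Hnrnpa0 (-0.20) and Hnrnpk (0.14) came next and did not pass. The 95% intervals had a median half-width of 0.34. For 37 of 58 members they lay within 0.5 of 0 and for 57 within 1, so a 2-fold difference was outside the interval for all but Srsf12.

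Loss of p50 and cRel gave the same count. In p50 cRel DKO cells with N4, 0 of 58 members passed against WT N4 cells, where 0.519% of all genes did (0.248% higher and 0.272% lower), and the count was 0 at an unadjusted p under 0.05 and in the 17 alternatives too. An unadjusted p under 0.05 was found for 788 of all 12520 genes. The members' median difference was 0.02, with a range of -0.37 to 0.18. Arrays did not overlap for 3 members higher and 4 lower, where this held for 15.3% of all genes in each direction. Summed B cell markers lay at 12871 and 11542 in the double knockout, against 11280 and 5559 in WT N4 cells. Of 19 dendritic cell and macrophage markers 14 were lower and 5 higher in the double knockout (median -0.49), and 0 passed. Of 8 CD8 T cell markers 1 fell and 0 rose. The lowest p belonged to Hnrnpul1, a relative of Hnrnpu, which lay at 12.13 and 11.81 in the double knockout, against 12.33 and 12.35 in WT N4 cells. Its groups did not overlap, and its difference of -0.37 had a 95% interval of -0.79 to 0.04 (limma adjusted p = 0.903). Sf3b5 (0.18), Hnrnph3 (-0.16) and Srsf6 (0.14) followed without passing. Intervals lay within 0.5 of 0 for 43 members and within 1 for 57. Hnrnpll lay at 12.59 and 12.49 in the double knockout, a difference of 0.02 from WT N4 cells (95% interval -0.35 to 0.39). The other splicing genes gave 0 of 143 past the test in each knockout.

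**Figure D5:**
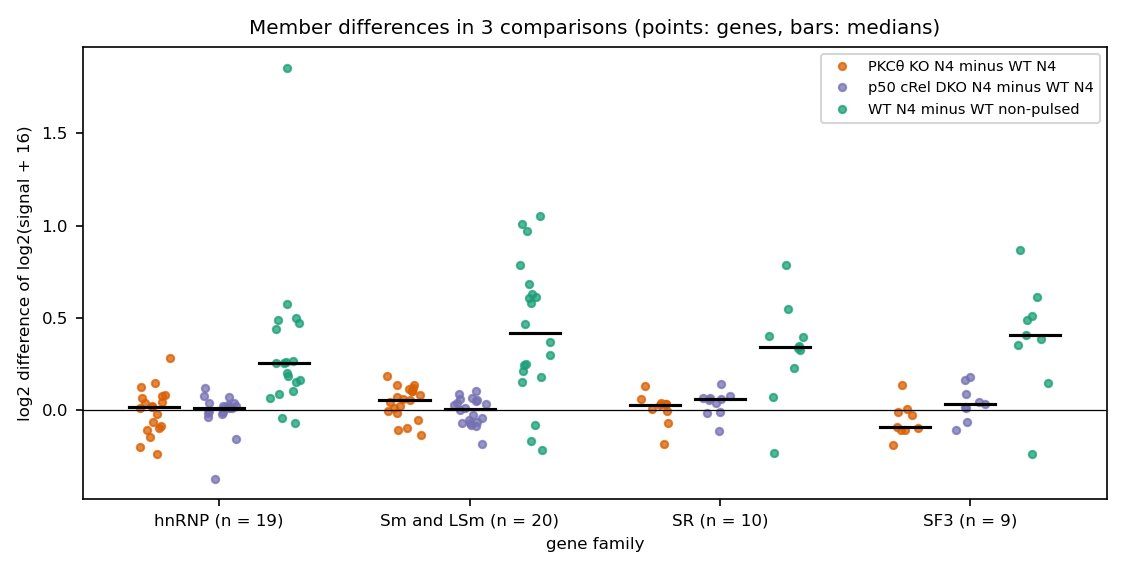
Differences of the 58 members in 3 comparisons, on the scale of log2(signal + 16), by gene family; points are genes (2 arrays per group) and bars are medians. Knockout differences lie between -0.37 and 0.28, while those of WT N4 against WT non-pulsed cells reach 1.86.

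Set against each other, the double knockout and the PKC theta KO gave 0 of 58 members past the test, where 0.431% of all genes passed (0.24% higher and 0.192% lower). Arrays did not overlap for 6 members higher and 6 lower, where this held for 18.3% and 15.7% of all genes. The lowest p-values were those of Sf3b6 (-0.24, 95% interval -0.53 to 0.04), Hnrnpll (0.26, 95% interval -0.11 to 0.63), Hnrnpul2 (0.20) and Hnrnpul1 (-0.28). Sf3b6 lay at 12.63 and 12.71 in the double knockout, against 12.81 and 13.02 in the PKC theta KO, and its groups did not overlap. At an unadjusted p under 0.05 the count was 0 here too, where 897 of all 12520 genes passed.

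Each knockout with N4 was also set against WT non-pulsed cells, which differ from it in both genotype and peptide. These comparisons share the non-pulsed arrays with the wild-type one, so their values stand side by side and are no separate evidence. In PKC theta KO cells 20 of 58 members were higher and 0 lower, where 40.6% of all genes passed, 16.5% higher and 24% lower, and the members' median was 0.37. Arrays did not overlap for 39 members higher and 3 lower, where this held for 28.1% and 40.7% of all genes. In p50 cRel DKO cells 23 were higher and 0 lower, where 39.3% of all genes passed, 16.5% higher and 22.8% lower, and the median was 0.39. Arrays did not overlap for 34 members higher and 4 lower, where this held for 29.6% and 40.9% of all genes. Hnrnpll differed by 1.62 in the PKC theta KO and 1.88 in the double knockout, beside 1.86 in wild-type cells. Lsm8 differed by 1.03 and 1.07, beside 1.01, and Snrpa1 by 1.01 and 1.00, beside 0.97. Sf3a3 differed by 0.68 and 0.88, beside 0.87, and Sf3b1 by -0.26 and -0.21, beside -0.24.

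Other members were higher in both comparisons. Of those with the lowest p, Snrpf (0.75 and 0.56), Snrpb (0.66 and 0.52), Lsm3 (0.74 and 0.72) and Hnrnpm (0.56 in each) passed in the PKC theta KO and in the double knockout. Sf3b6 (0.63) and Hnrnpa1 (0.51) were among the 10 with the lowest p in the PKC theta KO, and Sf3b5 (0.69) and Hnrnpu (0.65) in the double knockout. The counts were 9 in each comparison without WT non-pulsed replicate 2 (15.5% of members, against 12.2% of all genes in the PKC theta KO and 11.8% in the double knockout). Without PKC theta KO replicate 1 its count was 11 (19.0%, against 11.8%). Without double knockout replicates 1 and 2 its counts were 11 (19.0%, against 10.1%) and 13 (22.4%, against 11.96%). With the replicate block the PKC theta KO count was 38, of which 37 were higher (63.8%, against 21.6% of all genes).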

How the data were processed

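Genes were measured on 8 one-colour Affymetrix arrays, 2 in each of 4 groups taken from the sample titles. Titles mark only replicate 2, and the unmarked array of each group counted as replicate 1. The deposited unit is intensity, 1 linear signal for each probe set, and the submitters' processing notes name GCOS 1.4 and MAS5. In the values every array had a 2% trimmed mean of 500, and the arrays were not quantile normalized. Of 45101 probe sets, 64 were controls. The platform annotation gave 1 symbol to 34945 probe sets, several to 932, which were left unnamed, and no entry to 9160. Symbols were updated by Entrez identifier through RefSeq genes of GRCm38.p6.

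Signals were used as log2(signal + 16), probe sets with a mean under the 40th percentile were left out, and the probe set with the highest mean was used for each gene. A group-means model over the 8 arrays (4 residual degrees of freedom) was fitted by lmFit and trended eBayes of limma 3.58.1 (R 4.3.3), with Benjamini-Hochberg adjustment over 12520 genes and a threshold of 0.05. Tests are two-sided. The number of arrays limits the precision.

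Same-numbered arrays deviated together: for each of the 6 pairs of groups, the correlation of their replicate differences across genes was between 0.25 and 0.58. The numbers were therefore taken to pair the arrays, and fits with the number as a block are given beside counts they move by over 1.5 times and beside named genes whose call they change, or in the closing section. Alternatives were other pseudocounts, filters, scalings, probe set summaries and variance priors, the block, and leaving out each array.

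Named members are the 5 highest-rising and furthest-falling of each family that passed in wild-type cells, the members that passed elsewhere (up to 10 by p, or the 4 lowest p), 15 fixed genes and the 2 lowest p of each list of other splicing genes. Other members are given as differences to account for their family. The members and lists were chosen with earlier results of these data known.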

Additional observations from a re-analysis of the deposited data

How the results depend on the processing

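The members' lead over all genes depended on the setting, while the comparisons of the knockouts with WT N4 and with each other stayed at 0 members in all 17 alternatives. For WT N4 against WT non-pulsed cells 21 members passed (36.2% higher, against 17.2% of all genes). The count was 11 after median centring (19.0%, against 18.1%), 11 in eBayes without a trend (19.0%, against 14.7%) and 35 with the replicate block (58.6% higher, against 22.5%). Leaving out 1 array gave 5 (8.62%, against 11.2%) to 21 members. After quantile normalization 16 were higher (27.6%, against 21.3%) and 2, Srsf5 and Sf3b1, lower (3.45%, against 19.2%). The members' median of 0.34 was 0.24 after quantile normalization, 0.74 after centring and 0.26 with the mean of all probe sets. Over all genes the median was -0.10 in the deposited scaling, 0.09 with quantile normalization and 0.30 with centring, so the members' lead was 0.44, 0.16 and 0.44. The share of higher among called genes was 42.3%, 52.6% and 61.1%.

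For the PKC theta KO against WT non-pulsed cells the count of 20 was 12 after median centring (20.7%, against 17.3%), 13 without a trend (22.4%, against 14.1%) and 38 with the replicate block, and 9 to 23 with 1 array left out. For the double knockout the count of 23 was 9 (15.5%, against 16.8%), 11 (19.0%, against 14.1%) and 32, and 9 to 24 with 1 array left out. With the replicate block 63.8% of members were higher in the PKC theta KO, against 21.6% of all genes. In the double knockout 55.2% were, against 22.1%. Quantile normalization gave 12 higher (20.7%, against 20.5%) and 3 lower (5.17%, against 19.1%) in the PKC theta KO. In the double knockout it gave 13 higher (22.4%, against 20.5%) and 3 lower (5.17%, against 18.8%). The mean of all probe sets gave 18 higher (31.0%, against 13.9%) and 1 lower (1.72%, against 22.6%) in the PKC theta KO.

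Hnrnpll, Lsm8, Snrpa1, Sf3a3 and Snrpf passed in wild-type cells in all 17 alternatives. The replicate block ended none of the 21 calls and added 14: Lsm6, Lsm11, Snrpd3, Hnrnpa0, Hnrnpab, Sf3a1, Sf3a2, Sf3b3, Sf3b4, Srsf3, Srsf9, Srsf10 and Srsf12 as higher and Srsf5 as lower.

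In wild-type cells 19 members turned sign in some alternative, of which Lsm1 was the one that had passed (-0.057 with the mean of all probe sets). That setting also turned Sf3b3 (-0.054), Srsf11 (-0.31), Hnrnpf (0.25) and Lsm14a (0.014). Quantile normalization turned Hnrnpk (-0.035), Hnrnpdl (-0.013), Hnrnph1 (-0.016), Hnrnpr (-0.013), Hnrnpul1 (-0.10), Sf3b2 (-0.035) and Srsf11 (-0.088). Median centring turned Srsf5 (0.17), Sf3b1 (0.16), Hnrnpf (0.33), Hnrnpul2 (0.36), Lsm10 (0.18), Lsm14a (0.32) and Lsm14b (0.23). With 1 array left out, values crossed 0 for Hnrnpc (-0.041 to 0.36), Hnrnpdl (-0.13 to 0.34), Hnrnpf (-0.28 to 0.13), Hnrnpul1 (-0.17 to 0.30), Hnrnpul2 (-0.094 to 0.0069), Lsm12 (-0.17 to 0.60), Lsm14a (-0.20 to 0.029), Snrpg (-0.0026 to 0.36) and Srsf11 (-0.095 to 0.24). With the mean of all probe sets signs also turned for Hnrnpk in the PKC theta KO (-0.085) and Srsf6 in the double knockout (-0.023), both against WT N4, and for Hnrnpu in the double knockout against WT non-pulsed cells (-0.010). None of the turned values passed. The cause of these shifts was not tested.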

Other observations

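Replicate differences of the members were correlated between groups, though not every member differed the same way in each. Across the 58 members, the correlation between the replicate differences of 2 groups lay between 0.53 and 0.74 for the 6 pairs of groups, beside 0.25 to 0.58 across all 12520 genes. These are correlations across genes, which share arrays and scaling and are not independent replicates. The median size of the difference between the 2 arrays of a group was 0.14 in PKC theta KO N4, 0.20 in p50 cRel DKO N4, 0.15 in WT N4 and 0.22 in WT non-pulsed cells over members. Over all genes it was 0.26, 0.22, 0.26 and 0.24. Srsf12, the dimmest tested member, had the largest such difference in all 4 groups.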
